A study of Mus musculus with 24 samples.

Results

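The endoplasmic reticulum (ER) folding and stress genes measured here are 33 genes that encode the chaperones, disulfide isomerases and lectins of the ER lumen, the 3 sensors of the unfolded protein response, transcription factors below them, and parts of the ER import and degradation machinery. They were chosen by gene symbol: a gene was represented by the probe set of highest mean over the 24 arrays among those that the platform annotation pairs with that single symbol, and a probe set needed a mean of 4 or more on the log2 scale in at least 1 tissue. Of the 33 genes, 32 passed this filter, out of 10766 genes that passed it in all. Trib3, a pseudokinase induced by ATF4 and CHOP, did not pass: its probe sets averaged 2.68 and 2.44 over all arrays. Of the 32 genes, 15 had a single probe set above the filter and 17 had several.

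Total RNA of mouse striatum and cerebellum was hybridised to Affymetrix MG430 2.0 arrays, which read each transcript with short oligonucleotide probes near its 3′ end. There were 4 groups of 6 arrays: wild-type striatum, knock-in striatum, wild-type cerebellum and knock-in cerebellum. The knock-in mice (HdhQ111/HdhQ111, called Q111 here) carry an expanded CAG repeat, which encodes glutamine, in both copies of the mouse huntingtin gene. The wild-type mice (Hdh+/Hdh+) are described in the labels as Q7/Q7, so both genotypes are homozygous. The allele is in the endogenous gene in every cell, so no transgene promoter limits where it is expressed. All samples carry the age label 3 to 10 weeks. The labels call the samples biological replicates 1 to 6 without tying a number to a mouse, and give neither sex nor whether the tissues came from the same mice. The p-values below therefore measure the spread between these samples.

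Proteins that enter the secretory pathway fold in the ER with the help of chaperones, enzymes that form disulfide bonds, and lectins that bind their glycans. When unfolded protein accumulates, the sensors ATF6, IRE1 (Ern1) and PERK (Eif2ak3) signal to the nucleus: ATF6 and spliced XBP1 raise chaperone and degradation genes, while PERK slows translation and raises ATF4, which induces CHOP (Ddit3), the phosphatase subunit GADD34 (Ppp1r15a) and amino acid genes. Neurons keep this machinery active to supply receptors, channels and secreted peptides.

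ATF6 and XBP1 act through short promoter elements, so the members' promoter windows were read from RefSeq (build GRCm38.p6, 250 bases before to 50 after each start) and searched on both strands. The ER stress response element (ERSE), searched as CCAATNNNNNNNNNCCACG, was in the windows of 8 of the 29 members that matched the table (Calr, Canx, Creld2, Dnajc3, Hsp90b1, Hspa5, Pdia6 and Syvn1). Of all 27025 genes with windows, 0.137% had it. The related ERSE-II, searched as the reversed CCAAT box ATTGG, 1 free base and CCACG, was in the windows of Dnajb11 and Herpud1 and of 0.0444% of all genes. A C/EBP-ATF response element bound by ATF4, searched as TGATGNAA, was in the windows of Asns, Chac1, Herpud1 and Trib3 and of 4.51% of all genes. Atf6, Derl1, Hyou1 and Manf had no entry. The stretches below belong to members that the results turn on, with the matched motif in capitals and each read 5′ to 3′ on the gene's strand: Hsp90b1 at chr10:86705513-86705676 (minus strand), Hspa5 at chr2:34772005-34772063 (plus), Calr at chr8:84847055-84847113 (minus), Pdia6 at chr12:17266471-17266529 (plus) and Herpud1 at chr8:94386297-94386407 (plus).
Hsp90b1: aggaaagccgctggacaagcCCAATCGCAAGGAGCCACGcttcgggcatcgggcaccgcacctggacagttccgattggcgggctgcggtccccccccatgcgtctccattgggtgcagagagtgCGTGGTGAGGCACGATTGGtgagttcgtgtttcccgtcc
Hspa5: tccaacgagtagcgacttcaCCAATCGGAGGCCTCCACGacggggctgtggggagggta
Calr: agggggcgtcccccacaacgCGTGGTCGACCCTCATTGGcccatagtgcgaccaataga
Pdia6: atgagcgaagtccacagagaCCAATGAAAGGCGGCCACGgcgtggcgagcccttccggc
Herpud1: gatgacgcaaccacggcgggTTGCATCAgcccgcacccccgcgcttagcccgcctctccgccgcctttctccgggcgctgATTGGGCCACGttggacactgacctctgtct
Hsp90b1 holds 2 ERSE matches, 1 on each strand, and Calr holds 1 that reads on the opposite strand. In Herpud1 the first match is the C/EBP-ATF element on the opposite strand and the second is ERSE-II. A match describes these letters only, and no binding was measured.

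Correlations between arrays were 0.983 to 0.993 within a group and 0.796 to 0.849 across tissues. The tissue labels were met by their defining markers: the mean log2 level of 12 striatal projection neuron markers lay between 11.03 and 11.98 in the striatum arrays and between 5.07 and 5.42 in the cerebellum arrays, and that of 9 granule neuron markers between 11.95 and 12.42 in cerebellum and between 3.84 and 4.72 in striatum. Markers of neighbouring regions varied among the striatum arrays. The level of 9 cerebral cortex markers ran from 7.76 to 8.49 in wild type and from 7.98 to 9.02 in Q111, that of 7 thalamus markers from 5.65 to 8.05 and from 5.52 to 7.64, and that of 9 choroid plexus markers from 4.61 to 7.96 and from 5.34 to 8.23. In such bulk tissue, fewer cells of a type and less RNA per cell cannot be told apart.

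**Figure D1:**
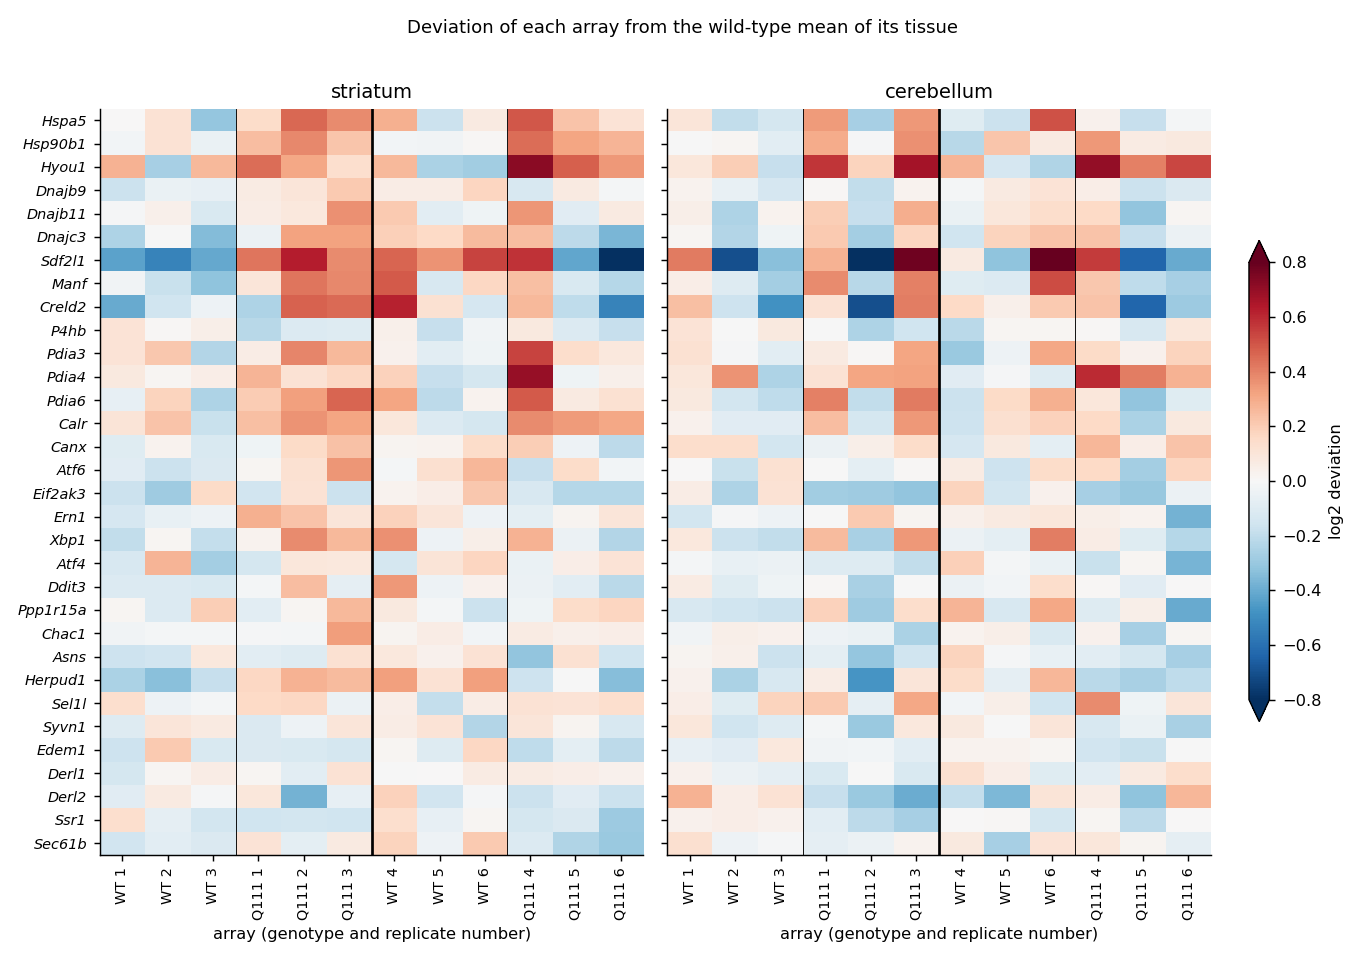
Heat map of 32 genes (rows) in the 12 striatum arrays (left) and the 12 cerebellum arrays (right), coloured by the log2 deviation of each array from the wild-type mean of its tissue, with the colour scale ending at deviations of 0.8 either way and a thick line between replicate numbers 1 to 3 and 4 to 6. Hsp90b1, Calr and Hyou1 are red in all 6 Q111 striatum arrays, whose Hyou1 differences were 0.21 in numbers 1 to 3 and 0.61 in numbers 4 to 6, while rows such as Sdf2l1, Herpud1 and Creld2 change sign between the number sets.

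The comparison of Q111 with wild-type striatum asks whether the expanded repeat goes with a different level of these genes in the tissue most affected in Huntington's disease. The ER chaperone GRP94, encoded by Hsp90b1, rose 1.24-fold in Q111 striatum. It was the only 1 of the 32 members past an adjusted p of 0.05, where 0.873% of all genes tested were called higher and 2.78% in either direction. None of the members was called lower, beside 1.9% of all genes. In mean level by brightest probe sets, 23 of 32 members were higher in Q111, with a median log2 difference of 0.05, while 42.2% of all genes were higher and their median was -0.03. Of the 17 members with several probe sets, 7 had another of opposite sign in striatum. At an unadjusted p under 0.05 stood 8 members and 2071 of all genes. The arrays of both genotypes did not overlap for 2 members, Hsp90b1 and Calr, both higher in Q111 (0.817% of all genes), and for none that was lower (1.62%).

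Among the luminal chaperones, Hsp90b1 folds a restricted set of clients such as integrins and Toll-like receptors. Its log2 values in wild-type striatum were 11.88, 12.02, 11.84, 11.88, 11.87 and 11.91, and in Q111 striatum 12.14, 12.28, 12.12, 12.35, 12.21 and 12.17. Every Q111 array was thus above every wild-type array. The difference was 0.31 (SE 0.07, limma adjusted p = 0.0266), and the exact two-sided permutation test over the arrays gave 0.00216, the smallest value that 6 against 6 arrays allow. A dimmer probe set of Hsp90b1 differed by 0.33 with an adjusted p of 0.165.

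Hyou1, which encodes the nucleotide exchange factor GRP170, had the largest difference of all members but more spread. Its wild-type values were 8.44, 7.89, 8.42, 8.42, 7.91 and 7.88 and its Q111 values 8.61, 8.47, 8.29, 8.88, 8.64 and 8.50. The wild-type arrays fell into a high and a low cluster, and of the Q111 arrays only array 3 lay below the highest wild-type value. The difference was 0.41 (SE 0.13, adjusted p = 0.0798), and a dimmer probe set gave 0.89 (adjusted p = 0.086).

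Hspa5, which encodes BiP, the main Hsp70 chaperone of the ER and a standard readout of ER stress, ran from 11.43 through a median of 11.77 to 12.02 in wild type and from 11.84 through 12.04 to 12.23 in Q111. The groups overlapped, and the difference of 0.30 (SE 0.13, 95% interval 0.04 to 0.57) had an adjusted p of 0.193. By brightest probe sets all 9 luminal chaperones and co-chaperones had a higher mean in Q111, with a median difference of 0.13. For Dnajc3, however, 3 dimmer probe sets gave -0.08, -0.08 and -0.19 and another 0.31, so no direction is given for Dnajc3. The co-chaperones Dnajb9, Dnajb11, Dnajc3 and Sdf2l1 and the stress-induced secreted or luminal proteins Manf and Creld2 lay between 0.03 and 0.14, with adjusted p from 0.478 to 0.955.

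The disulfide isomerases were not uniform. Pdia3, which works on glycoproteins together with the lectins, differed by 0.24 (adjusted p = 0.165), Pdia6 by 0.28 (adjusted p = 0.237) and Pdia4 by 0.21 (adjusted p = 0.313). P4hb, the most studied isomerase, was at -0.11 (adjusted p = 0.419).

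Calr encodes calreticulin, the soluble lectin chaperone and a calcium store of the ER. Its wild-type values were 12.37, 12.49, 12.09, 12.36, 12.15 and 12.12, and its Q111 values 12.50, 12.62, 12.58, 12.64, 12.60 and 12.57. The Q111 arrays lay close together just above the highest wild-type array, with an SD of 0.05 against 0.16. The difference of 0.32 (SE 0.09, exact permutation p = 0.00216) had an adjusted p of 0.0564, short of the threshold. The other probe sets of Calr gave 0.25 and 0.26 (adjusted p = 0.0932 and 0.0922). Canx, the membrane-bound lectin calnexin, differed by 0.05 (adjusted p = 0.791).

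**Figure D2:**
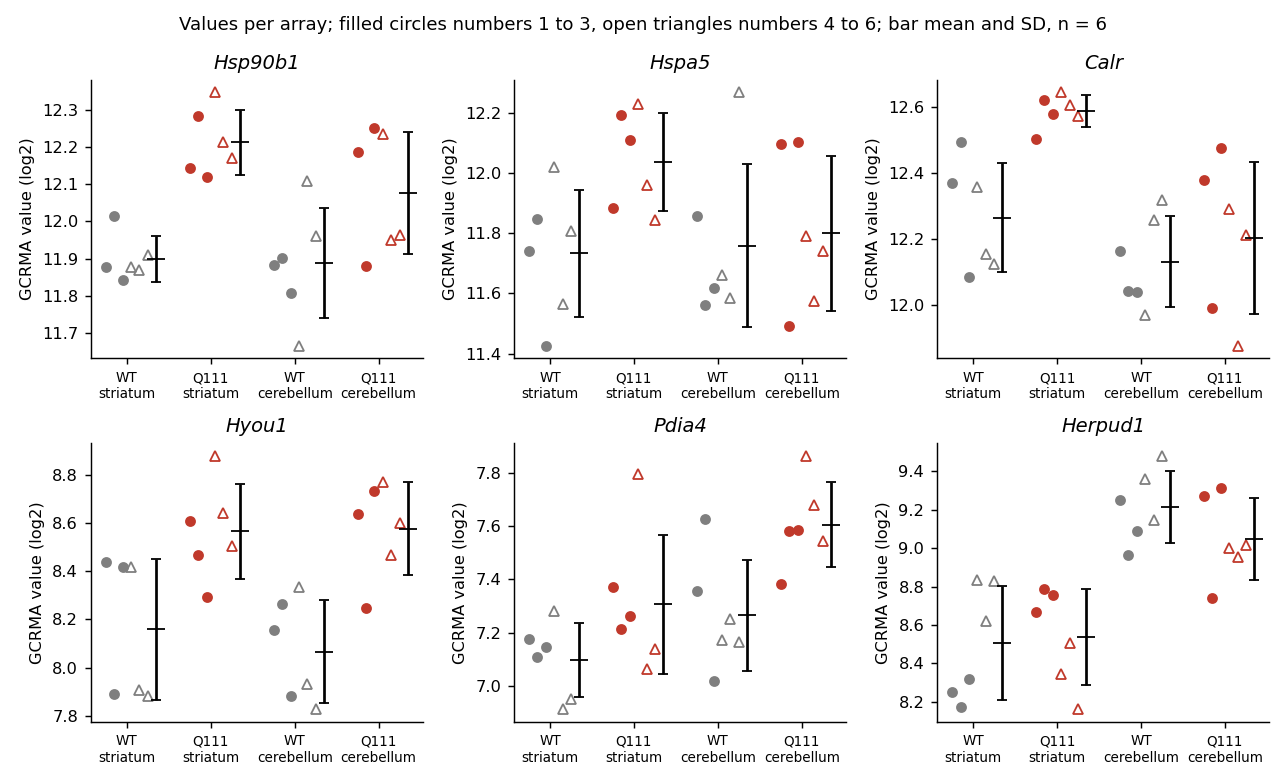
Log2 values of 6 genes in the 4 groups, 1 panel a gene, with filled circles for replicate numbers 1 to 3, open triangles for numbers 4 to 6, and a bar at the mean with its SD (n = 6). The Q111 striatum values of Hsp90b1 (12.12 to 12.35) and Calr (12.50 to 12.64) lie above all wild-type striatum values, while the number sets of Herpud1 separate in opposite directions in both genotypes.

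The signalling genes lay close to 0 in striatum. The sensors Atf6, Ern1 and Eif2ak3 differed by 0.07, 0.11 and -0.13, and the transcription factors Xbp1, Atf4 and Ddit3 by 0.11, 0.03 and -0.03. None of these 6 genes had an adjusted p under 0.445. The 95% intervals of the brightest probe sets limited a change in transcript level of Atf4 to between -0.15 and 0.20 and that of Ddit3 to between -0.20 and 0.14. The arrays read transcript levels, so protein levels, the splicing of Xbp1 and the activity of the sensors were not measured. Downstream of ATF4, Ppp1r15a, which reverses the translation block, differed by 0.08, Chac1, a glutathione-degrading enzyme, by 0.08, and Asns, asparagine synthetase, by -0.07.

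Among the degradation and import genes no difference passed the test. Of 6 retrotranslocation and degradation genes 3 were higher, with a median difference of 0.01, and Edem1, which picks misfolded glycoproteins, lay at -0.14 (adjusted p = 0.201). Ssr1, a subunit of the translocon-associated protein complex, had the 4th largest test statistic of all members. Its values ran from 9.54 through 9.67 to 9.83 in wild type and from 9.40 through 9.54 to 9.58 in Q111, all 6 Q111 arrays below the wild-type mean with some overlap, a difference of -0.17 (SE 0.06, adjusted p = 0.134). Its dimmer probe sets gave 0.31 (adjusted p = 0.0555), 0.06 and -0.03, and the mean of its probe sets 0.04, so no direction is given for Ssr1. Sec61b, a subunit of the import channel, lay at -0.09 (adjusted p = 0.602).

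**Figure D3:**
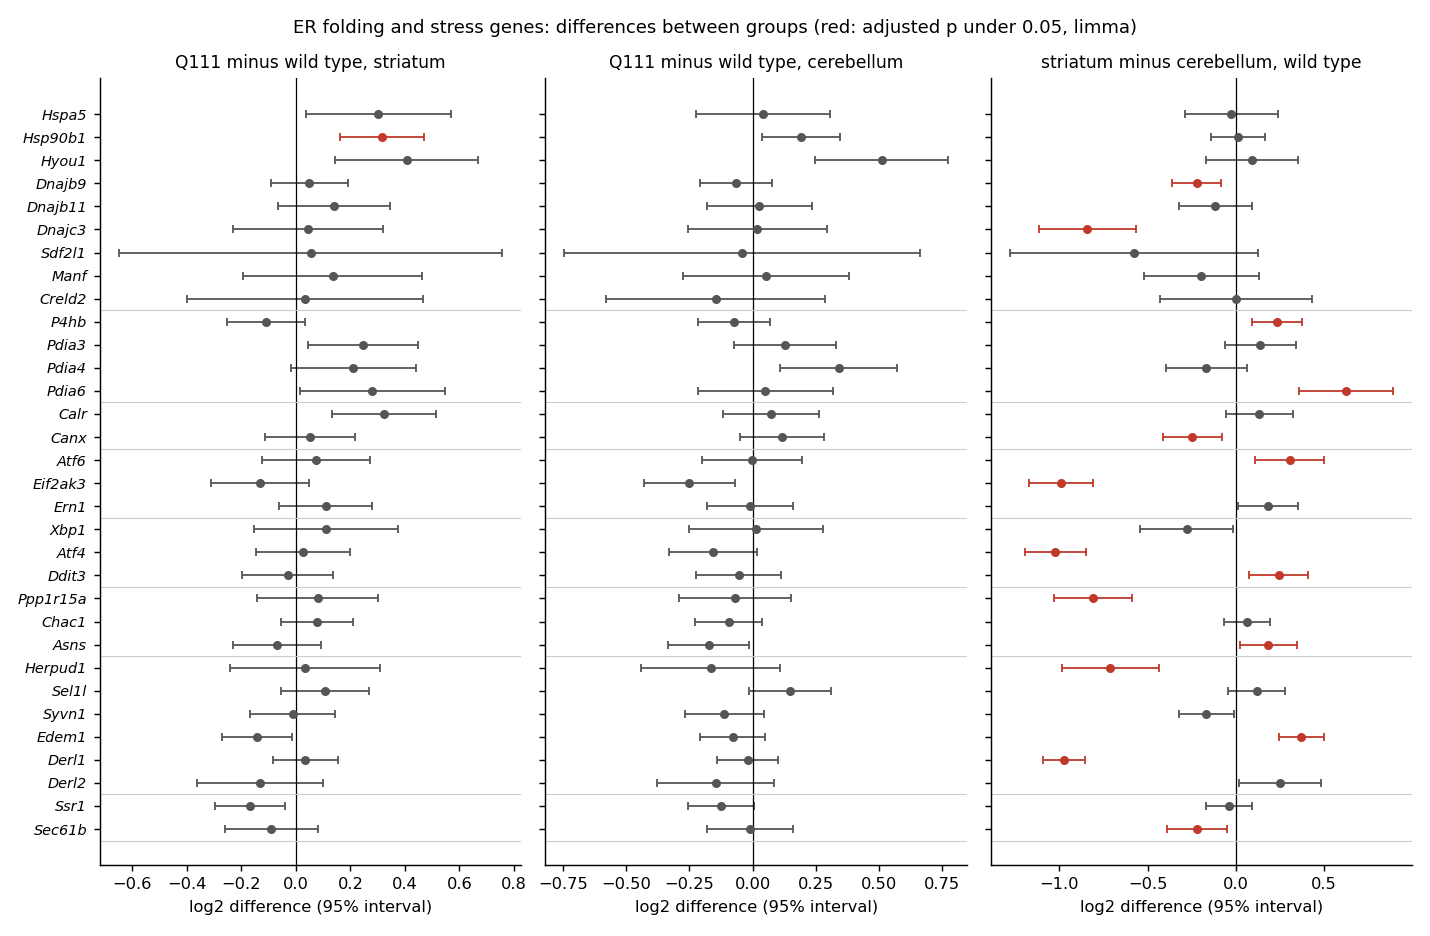
Log2 differences of the 32 genes with 95% intervals: Q111 minus wild type in striatum (left), in cerebellum (middle) and wild-type striatum minus wild-type cerebellum (right), with red for an adjusted p under 0.05 and grey lines between roles. In striatum only Hsp90b1 (0.31) is red and in cerebellum none, while 15 of 32 genes are red between the tissues.

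The Hsp90b1 call was close to the threshold: leaving out wild-type array 3, wild-type array 4 or Q111 array 2 took its adjusted p to 0.0513, 0.0598 and 0.0528, the mean of its probe sets gave 0.0607, and its difference was 0.27 in replicate numbers 1 to 3 alone (adjusted p = 0.243) and 0.36 in numbers 4 to 6 alone (adjusted p = 0.16). Calr passed the threshold in 1 of 12 leave-one-out runs, without wild-type array 2 (adjusted p = 0.0379). It passed in 4 of 15 other alternatives at the 0.05 threshold, with an adjusted p up to 0.385 over all of them. Quantile normalization and median centring of the arrays (0.0454 and 0.0248) were among the 4. They also moved the share of all genotype calls in striatum that were lower from 68.6% to 47% and 35.6%. Beside these results, the cortex markers were higher in Q111 striatum for 9 of 9 genes, 2 of them called, with a median difference of 0.46. Adjusted for the cortex marker level, a fit added once the data were seen, Hsp90b1 differed by 0.37 (adjusted p = 0.102) and Hyou1 by 0.71 (adjusted p = 0.0232), while adjusted for the thalamus marker level Hyou1 differed by 0.42 (adjusted p = 0.0483). Of 15 alternatives at the 0.05 threshold Hyou1 passed in these 2 alone, both added once the data were seen. Its adjusted p elsewhere reached 0.605. Of 8 microglia markers 3 were called higher and 1 lower, and of 8 endothelial markers 2 were called lower; their part in the result was not tested.

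In cerebellum, the tissue taken as the less affected one, no member passed the limma test, beside 0.0929% of all genes called higher, 0.353% called lower and 0.446% in either direction. At an unadjusted p under 0.05 stood 5 members and 1551 of all genes. For 9 of the 17 members with several probe sets, another probe set had the opposite sign in cerebellum. By brightest probe sets 13 of 32 members were higher in Q111, with a median difference of -0.02 against -0.05 over all genes. That direction turned with the scaling of the arrays: quantile normalization put 21 members higher and the median at 0.04, and median centring 24 members and 0.08. The share of all genotype calls in cerebellum that were lower moved from 79.2% to 43.2% and 24.1%. No member had arrays that did not overlap between the genotypes, beside 0.195% of all genes higher, 1.01% lower and 1.21% in either direction.

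Hyou1 again had the largest difference of the members. Its wild-type values in cerebellum were 8.16, 8.26, 7.88, 8.34, 7.93 and 7.83 and its Q111 values 8.64, 8.25, 8.73, 8.77, 8.47 and 8.60. All Q111 arrays but array 2 were above the highest wild-type array. The difference was 0.51 (SE 0.13, adjusted p = 0.0673, exact permutation p = 0.00649), and its dimmer probe set gave 1.01 (adjusted p = 0.109). It passed the threshold in 1 of 12 leave-one-out runs, without wild-type array 2 (adjusted p = 0.0481). Of 13 other alternatives at the 0.05 threshold it passed in 3: array weights (0.0212), quantile normalization (0.0326) and median centring (0.0248). Its adjusted p reached 0.166 on leaving out an array and 0.483 over the other alternatives.

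Pdia4 ran from 7.02 through 7.21 to 7.62 in wild-type cerebellum and from 7.38 through 7.58 to 7.86 in Q111. All 6 Q111 arrays were above the wild-type mean, and the difference was 0.34 (SE 0.11, adjusted p = 0.174). Eif2ak3, the sensor PERK, ran the other way, from 8.59 through 8.88 to 9.02 in wild type and from 8.52 through 8.55 to 8.79 in Q111. Its difference was -0.25 (SE 0.09, adjusted p = 0.201), with all 6 Q111 arrays below the wild-type mean. Hsp90b1 was between 11.67 and 12.11 in wild-type and between 11.88 and 12.25 in Q111 cerebellum, a difference of 0.19 (SE 0.07, adjusted p = 0.253).

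Among the other folding genes in cerebellum, Hspa5 differed by 0.04 (95% interval -0.22 to 0.31), Pdia3 by 0.13 (-0.08 to 0.33), Creld2 by -0.15 (-0.58 to 0.29), Calr by 0.07 (-0.12 to 0.26) and Pdia6 by 0.05 (-0.22 to 0.32). A dimmer probe set of Hspa5 gave -0.29 (adjusted p = 0.0741). The 3 measured outputs of the PERK and ATF4 arm, Ppp1r15a, Chac1 and Asns, were all lower in mean, at -0.07, -0.09 and -0.17, and so was Atf4 at -0.16. Their adjusted p ran from 0.315 to 0.824. Of 6 retrotranslocation and degradation genes only Sel1l, the adaptor of the Hrd1 ligase, was higher, by 0.15 (adjusted p = 0.405).

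The interaction of genotype and tissue asks whether the genotype difference itself differed between the tissues. No member passed the limma test, beside 0.0372% of all genes called higher, 0.0464% lower and 0.0836% in either direction, and no member had an unadjusted p under 0.05, beside 1101 of all genes. The difference was more positive in striatum for 24 of 32 members (53.9% of all genes), with a median of 0.10 against 0.02. It was largest for Hspa5, at 0.26 (SE 0.18, adjusted p = 0.673, with 0.41 and 0.0994 for a dimmer probe set), and Calr, at 0.25 (SE 0.13, adjusted p = 0.535), and it was 0.12 for Hsp90b1 (SE 0.11, adjusted p = 0.747). Hsp90b1 was thus called in striatum and not in cerebellum without a called difference between the tissues.

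The replicate numbers 1 to 3 and 4 to 6 gave different genotype differences in striatum, so each member was also compared between these sets, with the product of genotype and number set as the tested term. No label says what separates the sets. In numbers 1 to 3, 27 of 32 members were higher in Q111 striatum with a median of 0.19 (49% of all genes, median -0.01), and in numbers 4 to 6, 13 of 32 with a median of -0.07 (39.4% of all genes, median -0.07). For the 15 chaperones, isomerases and lectins the medians were 0.25, with 14 higher, and 0.08, with 8 higher.

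Over both sets, 12 members were higher in Q111 striatum in each, 4 lower in each, 15 higher in the first set and lower in the second, and 1 the reverse. For all genes these shares were 19.5%, 31%, 29.6% and 19.9%. Hsp90b1 (0.27 and 0.36), Calr (0.25 and 0.39), Hyou1 (0.21 and 0.61), Hspa5 (0.39 and 0.21) and Pdia3 (0.21 and 0.28) were among those higher in each set.

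Herpud1, which encodes a membrane protein that gathers degradation factors and is induced by both the ATF6 and PERK arms, was the 1 member called between the sets, beside 1.15% of all genes called in that direction, 0.947% in the other and 2.1% in either. Its striatum values in wild type were 8.25, 8.17 and 8.32 in numbers 1 to 3 and 8.83, 8.62 and 8.83 in numbers 4 to 6. In Q111 they were 8.67, 8.79 and 8.76 and then 8.34, 8.50 and 8.16. The sets did not overlap within either genotype and ran in opposite directions, so the genotype difference was 0.49 in numbers 1 to 3 and -0.43 in numbers 4 to 6. The difference between the sets was 0.92 (SE 0.19, adjusted p = 0.0112), while over all 6 numbers Herpud1 differed by 0.03 (adjusted p = 0.932). Its dimmer probe set gave a difference between the sets of 0.60 that was not called (adjusted p = 0.0646).

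Members with a similar course did not pass. Sdf2l1, a co-chaperone component of the BiP complex, had the largest set difference, 1.76 (SE 0.61, adjusted p = 0.117): its wild-type values were 4.53 to 4.65 in numbers 1 to 3 and 5.42 to 5.60 in numbers 4 to 6, and Q111 array 6 was lowest of all at 3.79. Dnajc3, which inhibits PERK and assists BiP, differed by 0.71 (adjusted p = 0.105), Manf by 0.69 (0.19), Xbp1 by 0.47 (0.303) and Sec61b by 0.48 (0.0694). Sec61b passed the threshold without wild-type array 5 (adjusted p = 0.0484). In the product with number set in cerebellum no member passed the limma test, beside 0.00929% of all genes. An unadjusted p under 0.05 was reached by 3 of 32 members and 735 of all 10766 genes.

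The genotypes mirrored each other across the sets. In wild-type striatum Herpud1 was -0.52 in numbers 1 to 3 relative to numbers 4 to 6 and in Q111 0.40, so that the means over both genotypes differed by -0.06. Over the 32 members the SD of this difference was 0.219 in wild type and 0.197 in Q111 but 0.0245 for the mean of both genotypes. Over all genes it was 0.202, 0.188 and 0.0407. In cerebellum it was 0.146, 0.144 and 0.0391 over the members and 0.154, 0.147 and 0.0465 over all genes. With means this close, a larger shift in either genotype goes with the opposite shift in the other, for any gene. The labels describe no processing that would equalise these means.

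The thalamus markers moved with the sets in striatum. Their level was 5.65 to 6.43 and 6.57 to 8.05 in numbers 1 to 3 and 4 to 6 of wild type, and 6.98 to 7.64 and 5.52 to 6.70 in those of Q111. All 7 measured thalamus markers of 9 listed had a positive set difference, 4 of them called, with a median of 2.43, and 8 of 9 cortex markers did, with a median of 0.76. All 12 striatal projection neuron markers and all 9 choroid plexus markers had a negative one, with medians of -0.72 and -0.95. Adjusted for the thalamus marker level, a choice made after seeing the data, the set difference of Herpud1 was 0.76 (adjusted p = 0.561) and no member was called.

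The comparison of the tissues asks where these genes differ without the expanded repeat. Of 32 members 15 were called, 6 higher and 9 lower in striatum, beside 73.8% of all genes (32.1% higher and 41.6% lower), and the median size of the difference was 0.22 against 0.47. In Q111, whose arrays are different ones, 20 of 32 were called, 11 higher and 9 lower, beside 73.6% (32.9% and 40.7%). The groups of wild-type arrays did not overlap for 2 members higher (24.2% of all genes) and 6 lower (31%) in striatum, out of 55.2% of all genes in either direction. In Q111 they did not overlap for 5 members higher (24.6%) and 6 lower (29.3%), out of 53.9%. The lowest value of an array was 0.36 to 0.38 in striatum and -0.766 to -0.662 in cerebellum, so a scaling apart for each tissue cannot be told from a tissue difference.

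The genes of the PERK and ATF4 arm did not share a direction. Eif2ak3, Atf4 and Ppp1r15a were called lower in striatum, as were 41.6% of all genes. Eif2ak3 ran from 7.56 through 7.89 to 8.06 in wild-type striatum and from 8.59 through 8.88 to 9.02 in wild-type cerebellum. Atf4, the transcription factor of this arm, ran from 9.40 through 9.65 to 9.94 and from 10.63 through 10.66 to 10.88. Ppp1r15a ran from 5.30 through 5.47 to 5.66 and from 6.10 through 6.15 to 6.58. None of these 3 genes had overlapping tissues, and they were lower in striatum by 1.98-fold (log2 difference -0.99, SE 0.09, adjusted p = 3.8e-10), 2.03-fold (-1.02, SE 0.08, adjusted p = 8.8e-11) and 1.75-fold (-0.81, SE 0.11, adjusted p = 3.7e-07). The exact permutation p was 0.00216 for each, the smallest value possible, which 6 against 6 arrays without overlap always give. In Q111 the differences were -0.87, -0.84 and -0.66. Other genes of the arm went the other way or stayed near 0: Ddit3 was 0.24 higher in striatum (adjusted p = 0.0106), Asns 0.18 higher (0.0384) and Chac1 at 0.06 (0.383).

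Derl1, a derlin that helps move misfolded proteins out of the ER, ran from 9.28 through 9.43 to 9.49 in wild-type striatum and from 10.30 through 10.39 to 10.53 in wild-type cerebellum, 1.97-fold lower in striatum (-0.97, SE 0.06, adjusted p = 2.1e-13). Dnajc3 ran from 8.14 through 8.56 to 8.74 and from 9.09 through 9.32 to 9.56 (-0.84, SE 0.13, adjusted p = 4.9e-06). Herpud1 ran from 8.17 through 8.47 to 8.83 and from 8.96 through 9.20 to 9.48 (-0.71, SE 0.13, adjusted p = 4.7e-05). For all 3 every striatum array was below every cerebellum array. Dnajb9 and Sec61b were lower in striatum by less, at -0.22 and -0.22 (adjusted p = 0.00561 and 0.0206). Canx was at -0.25 by its brightest probe set (adjusted p = 0.00832). Its dimmer ones gave -0.16 and 0.16 (0.326 and 0.31), so no direction is given for Canx.

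By brightest probe sets, Pdia6 was the member most above its cerebellum level in striatum. In wild type it ran from 8.76 through 8.99 to 9.32 against 8.18 through 8.35 to 8.67. Its tissues did not overlap, and it was 1.54-fold higher (0.62, SE 0.13, adjusted p = 0.000144). Edem1 (0.37), Atf6 (0.30) and P4hb (0.23) were also called higher in striatum. The main chaperones did not differ between the tissues beyond their spread: Hspa5 differed by -0.03 (95% interval -0.29 to 0.24), Hsp90b1 by 0.01 (-0.14 to 0.16) and Hyou1 by 0.09 (-0.17 to 0.35). The dimmer probe set of Hsp90b1, however, was 0.52 higher in striatum (adjusted p = 0.0013). Those of Sel1l were also called higher, at 0.55, 0.51 and 0.77 (0.0117, 0.00903 and 0.00269), beside 0.12 for its brightest (0.177). A dimmer probe set each of Xbp1 (-0.42, 0.014), Syvn1 (-0.39, 0.00645) and Ssr1 (-0.38, 0.00431) was called lower, and 1 of Calr higher (0.19, 0.0455). The brightest probe sets of these genes were not called. Derl2 and Ern1 were 0.25 and 0.18 higher by their brightest probe set and -0.55 and -0.89 by another, so no direction is given for them.

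**Figure D4:**
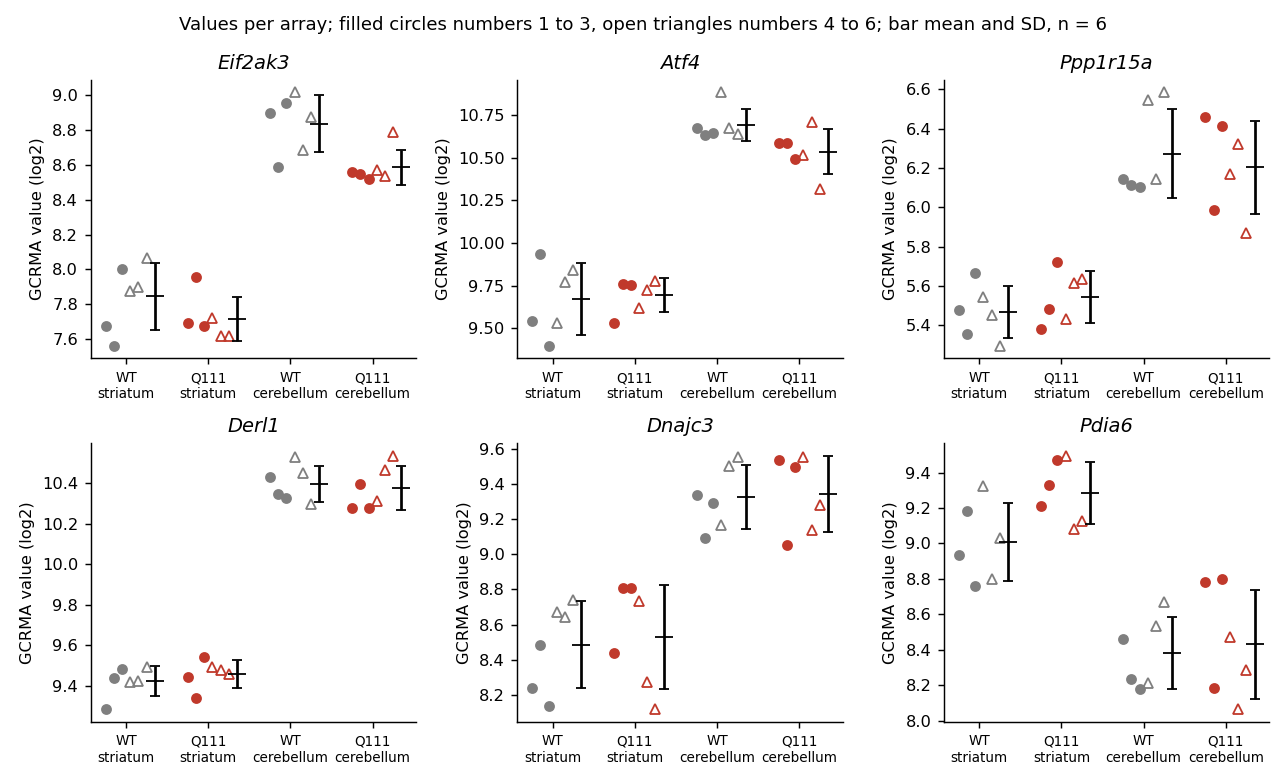
Log2 values of 6 genes in the 4 groups, 1 panel a gene, with filled circles for replicate numbers 1 to 3, open triangles for numbers 4 to 6, and a bar at the mean with its SD (n = 6). Eif2ak3, Atf4, Ppp1r15a, Derl1 and Dnajc3 are lower in all striatum arrays than in all cerebellum arrays, while Pdia6 is higher in striatum within each genotype, 8.76 to 9.32 against 8.18 to 8.67 in wild type.

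In Q111 the tissue differences of Calr (0.38, adjusted p = 0.000711), Pdia3 (0.26, 0.0224), Chac1 (0.24, 0.00216) and Pdia4 (-0.30, 0.0202) also passed, and Dnajb9 did not (-0.11, 0.161). Ern1 (0.30, 0.00234) and Derl2 (0.26, 0.0401) passed by their brightest probe set, but another gave -0.86 (adjusted p = 4.4e-06) and -0.58 (0.00107), so these calls carry no direction either. For none of these was the difference from wild type called, as the interaction above shows. The Pdia4 call was lost without Q111 striatum array 5 (adjusted p = 0.0566) or Q111 cerebellum array 4 (0.058).

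Other genes of ER folding, glycosylation, import, degradation and stress signalling were taken from a list of 148, of which 122 passed the filter. None was called between the genotypes in striatum or cerebellum or for the interaction by the limma test. An unadjusted p under 0.05 was reached by 20, 19 and 8 of the 122, beside 2071, 1551 and 1101 of all 10766 genes. In striatum 46 of 122 were higher in Q111 (median -0.03, beside 42.2% of all genes) and in cerebellum 31 of 122 (median -0.07, beside 33.9%). By sublist, 13.3% of 15 genes of N-glycan addition and glycan quality control were higher in Q111 striatum (median -0.11), and in the other sublists between 31.6% and 47.6% were.

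Between the number sets in striatum 4 of these 122 genes were called (3.28%, beside 2.1% of all genes). Ero1b, an oxidase that recharges the isomerases, differed by 0.77 (SE 0.18, adjusted p = 0.0223) and Ube2j1, the ubiquitin-conjugating enzyme of ER-associated degradation, by 0.62 (SE 0.15, adjusted p = 0.0246). With the mean of its probe sets Ube2j1 differed by 0.52 and was not called (adjusted p = 0.11). Dnajc1, a membrane-bound J protein, differed by -0.98 (SE 0.21, adjusted p = 0.0178) and Creb3, a membrane-tethered transcription factor, by -0.44 (SE 0.11, adjusted p = 0.0364). Dnajc1 was 6.84, 7.09 and 7.28 and then 6.54, 6.50 and 6.80 in wild type, and 6.73, 6.55 and 6.43 and then 7.09, 7.09 and 7.09 in Q111. Its shifts were opposite in the genotypes, which the nearly equal set means over both genotypes require of any gene that shifts. The call of Creb3 was lost on leaving out any 1 of the 12 striatum arrays (adjusted p 0.0511 to 0.0856), that of Ero1b without wild-type array 6, Q111 array 2 or Q111 array 4 (0.0761, 0.0532 and 0.0656), that of Ube2j1 without wild-type array 3 or 6 or Q111 array 3 or 4 (0.0638, 0.0811, 0.0747 and 0.0617), and that of Dnajc1 without Q111 array 3 (0.0523). Adjusted for the cortex or the thalamus marker level, a choice made after seeing the data, none of the 4 was called. Ero1b then differed by 0.75 and 0.75 (adjusted p = 0.107 and 0.544) and Ube2j1 by 0.53 and 0.34 (0.158 and 0.803). Dnajc1 differed by -0.97 and -0.97 (0.0865 and 0.522) and Creb3 by -0.46 and -0.52 (0.117 and 0.463). The differences of Ero1b, Dnajc1 and Creb3 thus stayed near their unadjusted size while the adjusted p rose. The part of tissue makeup in these differences was not tested.

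Between the wild-type tissues 68% of the 122 were called, beside 73.8% of all genes, 34 higher and 49 lower in striatum. The largest differences upward were those of Wfs1, the ER membrane protein wolframin (2.65, SE 0.14, adjusted p = 2.6e-14), Tusc3, an oxidoreductase subunit of the oligosaccharyltransferase (2.02, SE 0.06, adjusted p = 3.8e-19), and Psat1, an enzyme of serine synthesis (1.11, SE 0.08, adjusted p = 1.4e-11). Downward they were those of Selenom, an ER selenoprotein (-2.51, SE 0.10, adjusted p = 1.7e-16), Fkbp7, a prolyl isomerase (-2.04, SE 0.11, adjusted p = 1.6e-14), and Tram1, a translocon partner (-1.69, SE 0.08, adjusted p = 1.3e-15).

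Set beside the promoter windows shown above, the 8 members with an ERSE were higher in Q111 striatum for 7 of 8 genes with a median of 0.17, and the 20 measured members in the table without it for 12 of 20 with a median of 0.04. The 20 include Dnajb11 and Herpud1, which hold an ERSE-II. In cerebellum the counts were 6 of 8 (median 0.05) and 5 of 20 (median -0.07). By brightest probe sets, of the ERSE members only Syvn1, the Hrd1 ubiquitin ligase, was lower in Q111 striatum (-0.01). Its dimmer probe set gave 0.13. These are descriptions of lists of unequal size and were not tested.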

How the data were processed

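The deposited table held 1 log2 value per probe set and array, made by the authors with GCRMA per the submitters' processing notes. Its version, the log base (read as log2 from the values) and whether the tissues were normalised jointly are not given in the sources used here. Of 45101 probe sets, 64 control probe sets were left out and 20738 passed the filter. Probe sets were named from the platform annotation only where it gave a single symbol. All kept probe sets were fitted with limma 3.58.1 in R 4.3.3 (lmFit and eBayes, 4 genotype by tissue groups, 6 arrays each, no covariate), with Benjamini-Hochberg adjustment over all kept probe sets and a threshold of 0.05. The number sets were compared in a fit with 8 groups. The scripts were tested on simulated data. For single genes, exact two-sided permutation tests ran over the 924 splits of 12 arrays. Values are given for members past the threshold in a genotype, interaction or number set comparison, the 4 of largest moderated statistic in each genotype comparison and the 6 of largest difference between the wild-type tissues. Other pathway genes are named by the same threshold, or as the 3 each way of largest tissue difference. The members, lists and tests were chosen with earlier results of these data known. The columns not matched to a sample numbered 0. Arrays give intensities, not counts, so their number limits the precision. Alternatives tried were other filters on low values, quantile normalization, median centring, weights for arrays, a trended robust prior, blocks for replicate or for set, 1 tissue or number set alone, the mean of a gene's probe sets, a threshold of 0.1 and leaving out each array.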

Additional observations from a re-analysis of the deposited data

Results flagged for a closer look

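Of 144 groups of 6 arrays tested for a single array far from the others, 12 stood out by Dixon's criterion, where chance gives about 1 in 20 (7.2 groups). Among the sensors and transcription factors, Eif2ak3 was 7.96 in Q111 striatum array 2 (others 7.62 to 7.72) and 8.79 in Q111 cerebellum array 6 (others 8.52 to 8.57). Ern1 was 5.25 in Q111 cerebellum array 6 (others 5.63 to 5.84) and Atf4 10.88 in wild-type cerebellum array 4 (others 10.63 to 10.68). Ddit3 was 8.14 in Q111 cerebellum array 2 (others 8.31 to 8.41) and 8.99 in wild-type striatum array 4 (others 8.52 to 8.68). Among the other members, P4hb was 9.39 in wild-type cerebellum array 4 (others 9.60 to 9.72), Chac1 5.80 in Q111 striatum array 3 (others 5.45 to 5.53), Sel1l 9.01 in Q111 striatum array 3 (others 9.17 to 9.22) and Derl1 9.28 in wild-type striatum array 1 (others 9.42 to 9.49). Ssr1 was 9.40 in Q111 striatum array 6 (others 9.53 to 9.58) and 9.59 in wild-type cerebellum array 6 (others 9.74 to 9.79).

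For 5 genes the genotype difference in striatum differed between replicate numbers 1 to 3 and 4 to 6 by limma's test of the difference itself: 0.92 for Herpud1, 0.77 for Ero1b, -0.98 for Dnajc1, 0.62 for Ube2j1 and -0.44 for Creb3.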

How the results depend on the processing

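The 1 member called in striatum became 2 with quantile normalization, median centring, a trended robust prior, the arrays of striatum alone or the thalamus covariate (added after seeing the data), 3 at an adjusted p of 0.1, and 0 in numbers 1 to 3 alone, in numbers 4 to 6 alone and with the mean of all probe sets of a gene. With the replicate number as a block it was 0 (Hsp90b1 adjusted p = 0.111), and 74 of all genes were called in place of 299; arrays of 1 number correlated across genotypes at -0.41 to -0.09 in striatum and -0.42 to 0.12 in cerebellum after removal of the group means, with 0 arrays best with their own number. Across tissues they correlated at -0.0043 to 0.18 in wild type and -0.05 to 0.14 in Q111, with 3 and 2 of 6 best with their own number. In none of these was every pair over 0.1, the bar set for treating numbers as pairs. Across genotypes this check could not show pairs. The nearly equal set means over both genotypes push correlations between arrays of the same number below 0. The 0 members called in cerebellum became 1 with quantile normalization, median centring, array weights or an adjusted p of 0.1. Of all genes, quantile normalization called 177 higher and 157 lower in striatum and 21 and 16 in cerebellum. Median centring called 192 higher and 106 lower in striatum and 44 and 14 in cerebellum. The 1 member called between number sets in striatum became 2 at an adjusted p of 0.1 and 0 with the thalamus covariate. The 20 members called between the Q111 tissues became 11 in numbers 4 to 6 alone. The median difference of the members moved to 0.19 in numbers 1 to 3 and -0.0748 in numbers 4 to 6 for striatum, to 0.084 with median centring for cerebellum, and to -0.11 with the mean of all probe sets between the Q111 tissues. Creb3 turned to 0.0629 (adjusted p = 0.798) with the mean of all probe sets. On leaving out 1 array in turn, the members called ranged from 0 to 2 in striatum, 0 to 1 in cerebellum, 14 to 17 between wild-type tissues, 18 to 20 between Q111 tissues and 1 to 2 between number sets in striatum. The interaction and the number sets in cerebellum kept 0 calls in these runs. All genes called ranged from 116 to 333 in striatum (299 with all arrays), from 15 to 128 in cerebellum (48), and from 60 to 268 between number sets in striatum (226). Between the tissues they ranged from 7770 to 7901 in wild type (7940) and from 7747 to 7853 in Q111 (7923). The causes of these changes were not tested. The number of arrays, 6 in a group, limits the precision, and a difference in cell makeup cannot be told from one within cells.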
